A study of Mus musculus with 7 samples.

Results

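Hemidesmosomes are the junctions that rivet basal keratinocytes to the basement membrane under the epidermis, and laminin-332 is the basement membrane protein they hold. Described here are 9 genes of this machinery, matched by symbol to 1 row each of a table of 13167 transcripts (13047 distinct symbols): the integrin subunits Itga6, Itgb4 and Itga3, the tetraspanin Cd151, the transmembrane collagen Col17a1, the plaque proteins Plec and Dst, and the laminin chains Lama3 and Lamb3. The study set out to compare the epidermis of mice with a transgenic knockout (KO) of Pelo, the ribosome rescue factor Pelota, with that of wild-type (WT) mice. Ribosome profiling, which sequences the mRNA pieces covered by ribosomes, was read from 2 KO and 2 WT libraries of primary mouse epidermis depleted of ribosomal RNA. The labels give neither the driver of the knockout nor the strain or age. Whether the 2 replicates of a genotype were different animals is not stated; p-values here measure library-to-library spread, which may be technical.

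The integrin of the hemidesmosome is the pair of an alpha-6 chain (Itga6) and a beta-4 chain (Itgb4). Outside the cell it binds laminin-332, a trimer that holds the chains encoded by Lama3 and Lamb3; inside the cell the beta-4 tail binds plectin (Plec) and BPAG1 (Dst), which anchor the keratins Krt5 and Krt14. Col17a1 spans the membrane beside the integrin, Cd151 associates with laminin-binding integrins in the membrane, and the alpha-3 chain (Itga3) pairs with beta-1 to bind the same laminin outside hemidesmosomes. Inherited loss of several of these proteins is known to cause blistering of the skin.

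In the knockout Lama3 carried more footprints, Col17a1, Dst and Cd151 carried fewer, and Itga6, Itgb4, Itga3, Plec and Lamb3 did not pass the test. All 9 genes were listed in all libraries, with 408 to 10459 coding footprints in a library, and all 9 passed the filter on low counts. Of the 9, 1 was higher in KO against a background of 19.9% of all 10953 transcripts tested, and 3 were lower against 19.1%. In both directions together that is 44.4% of the genes, near the background of 39.0%. The KO libraries did not overlap the WT libraries for 6 of the 9, against 71.9% of all transcripts. The median log2 change (KO minus WT) of the 9 genes was −0.08, against −0.02 over all transcripts tested. The share called was thus near that of the whole table, and directions differed among the genes.

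Coding footprints totalled 4221675 to 5282276 per library. Pelo, the targeted gene, had 24 and 21 coding footprints in the KO libraries (replicate 1, then 2, here and below) against 101 and 61 in the WT libraries, a difference in the direction of the labels (log2 change −1.65, SE 0.245, adjusted p = 0.000807). The basal keratinocyte markers Krt5, Krt14, Krt15 and Trp63 were listed in all libraries. Markers of other cells were present too, and those of some cell types moved with genotype. Of all transcripts tested, 19.1% were lower and 19.9% higher. All 12 dermal fibroblast markers were listed, with a summed level of 46092 and 50526 CPM in KO against 81218 and 126189 in WT. Of these 12, 6 fell and 6 were not called. Of 8 endothelial markers tested, 1 fell and 7 were not called. Adipocyte markers fell in 6 of 7 tested. Melanocyte markers rose in 4 of 5 tested (summed 354 and 179 CPM in KO against 36.6 and 51.9 in WT). The other, Mitf, fell (log2 change −1.03, adjusted p = 0.0133, edgeR) but lost its call without WT replicate 2. Hair shaft markers rose in 3 of 3 tested (1583 and 558 CPM against 41.5 and 56.5, unlisted genes taken as 0). The part of these cells in the results below was not tested. CPM are footprint counts scaled to a common library size and corrected with edgeR's TMM factors. In such bulk tissue, fewer cells of a type and less RNA per cell cannot be told apart, and footprints cannot tell more mRNA from more ribosomes per mRNA, as RNA-seq was not analysed here.

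Per coding length, Col17a1 was the most densely covered of the 9 genes in both genotypes, and Dst and Lama3 were the least. Levels between genes are given as CPM per kb of coding region (mean ± SD, n = 2). In WT, Col17a1 stood at 274 ± 25.1, Cd151 at 180 ± 13.7 and Plec at 145 ± 19.0. Lamb3 (100.1 ± 15.2), Itgb4 (91.0 ± 4.09) and Itga6 (89.3 ± 6.99) came next, and their WT libraries overlapped, so these 3 had no order. Itga3 followed at 36.0 ± 0.0512, and Dst (20.05 ± 3.24) and Lama3 (18.5 ± 1.95) overlapped at the bottom. In KO, Col17a1 stood at 197 ± 2.67, Plec at 149 ± 3.96, Cd151 at 132 ± 4.65 and Itgb4 at 103 ± 9.82, in that order without overlap. Lamb3 (85.6 ± 7.38) and Itga6 (84.3 ± 5.64) overlapped, and Itga3 stood at 38.5 ± 1.94, Lama3 at 30.0 ± 6.77 and Dst at 13.3 ± 1.15. Plec and Cd151 thus had opposite orders in WT and KO, and Lama3, not separable from Dst in WT, lay above it in KO.

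**Figure D1:**
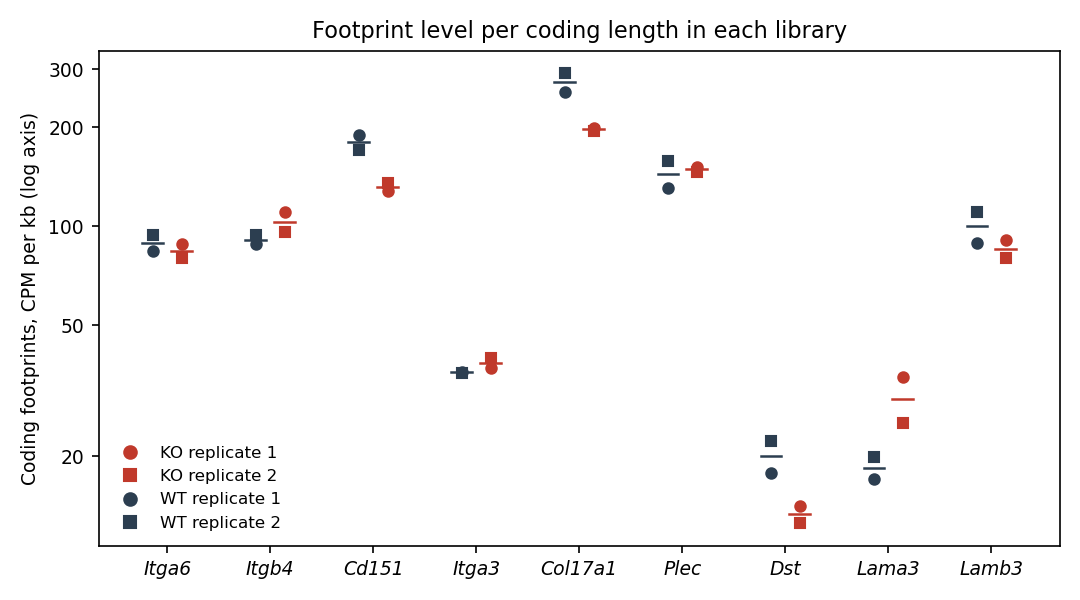
Coding footprints in CPM per kb of coding region (log axis) for the 9 genes, with WT in dark blue and KO in red, a symbol per library and a bar at each genotype mean. Both KO libraries lie below both WT libraries for Cd151, Col17a1 and Dst, and above them for Lama3, Itgb4 and Itga3. Itgb4 and Itga3 did not pass the test.

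The length counted bears on the bottom 2 genes. The table holds 1 transcript for each of the 9 genes. The Dst transcript (uc007aon.2) has a coding region of 23094 nt and the Lama3 transcript (uc008ecf.2) one of 9933 nt, whereas those of the other 7 run from 702 nt (Cd151) to 14016 nt (Plec). Both genes are known to make a long product and a shorter epithelial one from an internal start (BPAG1e for Dst, the A form of the alpha-3 chain for Lama3). A level per kb of the long form need not be that of the epithelial form, and a change cannot be assigned to either form from these counts.

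The alpha-6 beta-4 integrin did not pass the test in either subunit. Itga6 coding footprints numbered 1287 and 1111 (KO) against 1542 and 1313 (WT). Scaled, that was 284 and 258 CPM against 271 and 303, and the genotypes overlapped. Its log2 change was −0.08 (SE 0.118, 95% interval −0.35 to 0.18, adjusted p = 0.614, edgeR). Itgb4 had 2674 and 2218 footprints in KO and 2679 and 2176 in WT. On the CPM scale both KO libraries (590 and 516) lay above both WT libraries (471 and 502), by less than the test could separate from the spread between replicates (0.18, interval −0.08 to 0.45, adjusted p = 0.252). The ratio of Itgb4 to Itga6 in footprints per coding nt does not depend on how libraries are scaled. It was 1.25 and 1.2 in KO and 1.04 and 0.996 in WT, near 1 in every library and higher in both KO libraries. With 2 libraries per genotype the smallest p of the two-sided exact permutation test is 0.33, which this ratio reached (adjusted p = 0.40 over the 6 ratios tested).

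The alpha-3 chain did not pass the test either, while the tetraspanin Cd151 fell. Itga3 had 522 and 532 footprints in KO and 635 and 483 in WT, or 115 and 124 CPM against 112 and 111 (log2 change 0.10, interval −0.16 to 0.36, adjusted p = 0.536). The KO libraries lay just above the WT libraries with TMM scaling, but the sign turned with library totals alone (−0.08). The ratio of Itga3 to Itga6 was 0.42 and 0.496 in KO and 0.427 and 0.381 in WT, with overlapping genotypes (exact permutation p = 0.67).

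Cd151 had 409 and 408 footprints in KO and 758 and 519 in WT, or 90.2 and 94.8 CPM against 133 and 120. Both KO libraries were below both WT libraries, a fall of 1.37-fold (log2 change −0.45, SE 0.120, adjusted p = 0.0156). It lost its call with DESeq2 (−0.44, adjusted p = 0.0808), without KO replicate 1 (−0.41) and without WT replicate 1 (−0.38). Per coding nt, Cd151 had 3.46 and 3.39 times the footprints of Itga3 in KO and 5.27 and 4.75 times in WT. The genotypes did not overlap in this ratio (exact permutation p = 0.33, the smallest possible).

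Col17a1, the transmembrane collagen also known as BP180, fell. It had 3830 and 3566 footprints in KO and 6186 and 5368 in WT, or 845 and 829 CPM against 1088 and 1239. Both KO libraries were lower, and the 2 of them differed by less than the 2 WT libraries did. The fall was 1.39-fold (log2 change −0.48, SE 0.121, adjusted p = 0.0129). It lost its call without KO replicate 1 (−0.48, adjusted p = 0.0521) and without KO replicate 2 (−0.45, adjusted p = 0.0627), with the same size of change. Against Itgb4, Col17a1 had 1.81 and 2.03 times the footprints per coding nt in KO and 2.91 and 3.11 times in WT, again without overlap (exact permutation p = 0.33).

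Of the 2 plakins of the inner plaque, Dst fell and Plec did not pass the test. Plec, the keratin linker and the gene with most footprints of the 9, had 9661 and 8831 in KO and 10459 and 9602 in WT. On the CPM scale the KO libraries (2131 and 2053) lay between the WT libraries (1840 and 2216), with a log2 change of 0.05 (interval −0.26 to 0.35, adjusted p = 0.825). Its sign turned with library totals alone (−0.13) and without WT replicate 1 (−0.09). Dst footprints numbered 1482 and 1245 (KO) against 2331 and 2235 (WT), which is 327 and 289 CPM against 410 and 516. Both KO libraries were below both WT libraries, a fall of 1.5-fold (log2 change −0.59, SE 0.139, adjusted p = 0.00912), called under every alternative run, with log2 changes of −0.76 to −0.41. The ratio of Dst to Plec was 0.0931 and 0.0856 in KO and 0.135 and 0.141 in WT, without overlap (exact permutation p = 0.33).

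Long Dst products are also made in muscle and nerve. With unlisted genes taken as 0, the summed markers of those tissues were lower in both KO libraries than in both WT libraries. Skeletal muscle markers summed to 469 and 503 CPM in KO and 1915 and 586 in WT; of 12 markers, 8 and 2 were listed in KO and 12 and 9 in WT. Of 2 tested, Des fell (−2.13) and Acta1 was not called (0.10). Acta1 made up most of the KO sums, with 380 and 456 CPM against 472 and 309 in WT. Ttn was unlisted in both KO libraries and in WT replicate 2, where it could hold up to 1003 footprints. The order of the muscle sums is therefore not settled. Schwann cell and nerve markers summed to 289 and 365 CPM in KO and 389 and 400 in WT; of 9 in the table, 7 fell and the transcription factor Egr2 rose, Prx was unlisted in KO, and Mag had no row. The part of these cells in the fall of Dst was not tested.

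The upstream sequence of the 3 genes that fell is shown because they moved in the same direction: the 250 bases before each RefSeq start, on the gene's strand, 5′ to 3′, build GRCm38.p6. The counts rest on mm9 annotations, so these windows are not tied to the counted transcripts. Capitals mark matches, on either strand, to 3 motifs that do not overlap one another here. The TATA box was searched as TATAAA. The GC box was searched as GGGCGG. The AP-1 motif was searched as TGANTCA.
Col17a1 start, chr19:47692043-47692292, minus strand: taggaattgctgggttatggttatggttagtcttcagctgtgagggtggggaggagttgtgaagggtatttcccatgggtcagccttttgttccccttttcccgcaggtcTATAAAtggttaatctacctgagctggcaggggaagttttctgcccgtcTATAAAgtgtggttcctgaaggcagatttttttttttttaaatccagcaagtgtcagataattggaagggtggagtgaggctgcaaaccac
Dst upstream start, chr1:34011345-34011594, plus strand: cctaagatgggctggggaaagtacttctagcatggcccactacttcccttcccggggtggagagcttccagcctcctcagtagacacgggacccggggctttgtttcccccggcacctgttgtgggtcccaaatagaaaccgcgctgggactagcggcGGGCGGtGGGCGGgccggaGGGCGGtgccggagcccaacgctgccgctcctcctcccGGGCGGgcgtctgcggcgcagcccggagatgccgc
Dst downstream start, chr1:34160010-34160259, plus strand: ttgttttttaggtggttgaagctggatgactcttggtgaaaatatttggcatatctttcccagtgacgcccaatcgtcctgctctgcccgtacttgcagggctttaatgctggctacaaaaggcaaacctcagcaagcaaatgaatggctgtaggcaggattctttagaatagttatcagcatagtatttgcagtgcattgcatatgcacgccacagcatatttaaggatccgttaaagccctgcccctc
Cd151 upstream start, chr7:141467112-141467361, plus strand: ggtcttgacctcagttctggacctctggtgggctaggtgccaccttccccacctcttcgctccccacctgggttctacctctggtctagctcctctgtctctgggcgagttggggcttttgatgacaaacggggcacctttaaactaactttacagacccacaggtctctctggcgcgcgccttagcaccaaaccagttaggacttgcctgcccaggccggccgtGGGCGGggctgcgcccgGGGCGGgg
Cd151 downstream start, chr7:141468539-141468788, plus strand: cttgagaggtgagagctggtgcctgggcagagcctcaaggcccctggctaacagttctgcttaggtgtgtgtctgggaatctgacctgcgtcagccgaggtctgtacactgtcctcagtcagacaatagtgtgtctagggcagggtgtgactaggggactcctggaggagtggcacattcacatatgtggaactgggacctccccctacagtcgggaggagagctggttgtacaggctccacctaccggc

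The windows were unlike one another. The Col17a1 window held 2 TATA box matches, starting 140 and 91 bases before the start, and no GC box; 12.4% of 32851 windows of this length held the first motif and 32.7% the second. The upstream Dst window held 4 GC boxes and 68.8% G and C. The downstream Dst window, 148665 nt further along the gene, held no match to any of the 3 motifs and 45.2% G and C, against a median of 52.4% over all windows. The upstream Cd151 window held 2 GC boxes and 62.4% G and C, and the downstream one held no match to any of the 3 motifs and 58% G and C. None of the 5 windows held an AP-1 match, which 6.75% of windows had. The 9 genes had windows for 5 members, and a match is a string of letters, not a bound site.

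**Figure D2:**
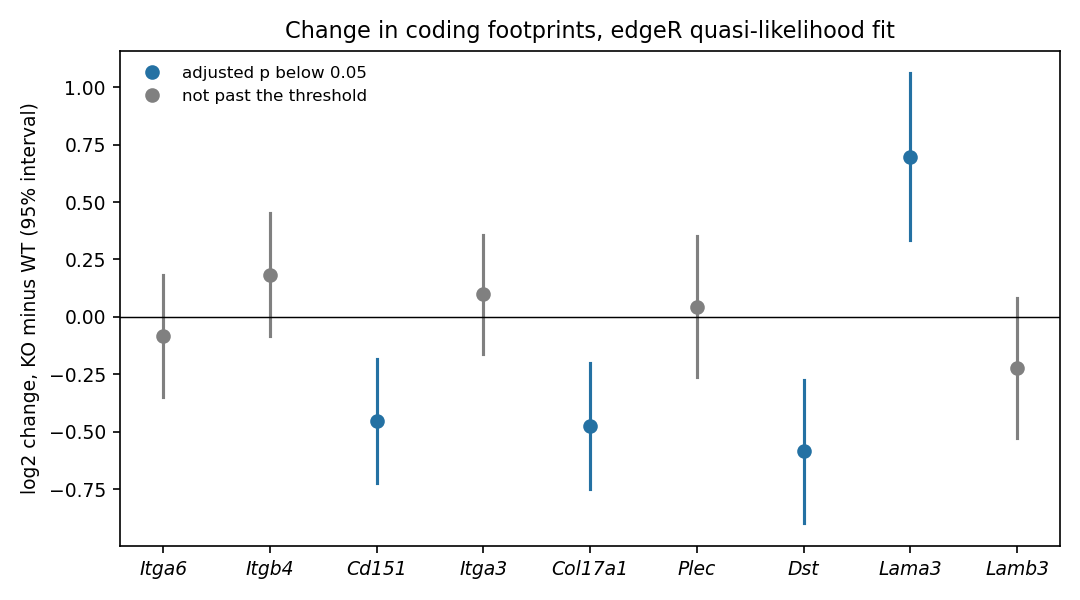
Log2 change in coding footprints, KO minus WT, with its 95% interval from the edgeR fit, for the 9 genes (circles); blue marks an adjusted p below 0.05 and grey the rest. Lama3 lies above 0, Cd151, Col17a1 and Dst below it, and the intervals of the other 5 cross it.

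Of these laminin-332 chains, Lama3 rose and Lamb3 did not pass the test. Lama3 coding footprints numbered 1565 and 1076 (KO) against 966 and 855 (WT), which is 345 and 250 CPM against 170 and 197. Both KO libraries were higher, though they differed by more than the WT libraries did. The rise was 1.62-fold (log2 change 0.70, SE 0.161, adjusted p = 0.00811). It was called under every alternative run, and its log2 change was 0.46 without KO replicate 1 and 0.92 without KO replicate 2.

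Lamb3 had 1419 and 1192 footprints in KO and 1750 and 1655 in WT, or 313 and 277 CPM against 308 and 382. The genotypes overlapped, and the change did not pass (log2 −0.22, interval −0.53 to 0.08, adjusted p = 0.220). With library totals alone it was called lower (−0.40, adjusted p = 0.0306). Lamb3 thus did not rise with Lama3 under either scaling. Per coding nt, Lamb3 had 2.61 and 3.19 times the footprints of Lama3 in KO and 5.22 and 5.58 times in WT. The genotypes did not overlap in this ratio (log2 difference −0.90, exact permutation p = 0.33).

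**Figure D3:**
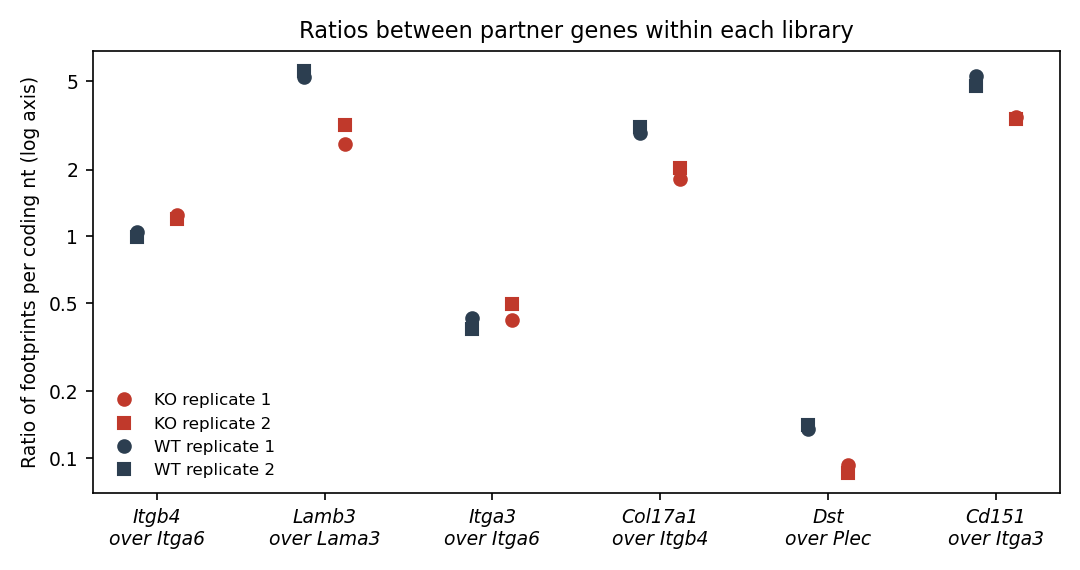
Ratio of coding footprints per coding nt between 6 pairs of genes within each library (log axis), WT in dark blue and KO in red. In 5 of the 6 pairs the KO and WT libraries do not overlap; Itga3 over Itga6 is the exception.

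Of the basal keratins, Krt5 and Krt14, which the plaque anchors, rose, and Krt15 fell. Krt5 had 12057 and 9891 CPM in KO and 6145 and 7011 in WT (log2 change 0.74, adjusted p = 0.00783; 0.60, adjusted p = 0.0563, without KO replicate 1). Krt14 had 11322 and 10197 CPM in KO and 2679 and 3324 in WT (1.84, adjusted p = 4.7e-05). Krt15 had 982 and 1272 CPM in KO and 3718 and 3708 in WT (−1.72, adjusted p = 4.4e-05). None of Itga6, Itgb4, Plec, Col17a1 and Dst was called higher. The basal transcription factor Trp63 stood at 354 CPM in KO and 330 in WT and did not pass (0.10, adjusted p = 0.503). Wound keratins (Krt6a, Krt6b, Krt16, Krt17) were listed in all libraries and summed to 25815 and 27824 CPM in KO and 5368 and 6592 in WT; suprabasal keratinocyte markers summed to 81235 and 71421 CPM in KO and to 31813 and 27731 in WT. Their part in the changes of the laminin chains was not tested.

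Other basement membrane genes fell more often than they rose. Of 23 tested, 13 were lower, 3 higher and 7 not called, with a median log2 change of −0.43 against −0.02 over all transcripts. Of all transcripts tested, 19.1% were lower and 19.9% higher. With DESeq2, 10 of the 23 were lower and 2 higher, against 1177 lower and 1492 higher of all 10953 transcripts. The 3 that rose were Col7a1 (0.78), the collagen of the anchoring fibrils under the hemidesmosome, Col18a1 (0.74), a collagen of basement membranes, and the laminin linker Nid1 (0.38). Those that fell included Frem2 (−1.60), Npnt (nephronectin, −1.45), the type IV collagen chains Col4a5 (−1.38), Col4a1 (−0.74) and Col4a2 (−0.52), and Lamc3 (−1.10), Lamb2 (−0.76), Lama4 (−0.59), Lamc1 (−0.45) and Lama2 (−0.43), chains of other laminins. Lama5 (0.06) and Lamb1 (−0.03), also chains of other laminins, were not called. Many of these genes are also made by fibroblasts, vessels and nerve. Fibroblast markers summed to 46092 and 50526 CPM in KO and 81218 and 126189 in WT, and endothelial markers to 272 and 288 in KO and 304 and 339 in WT, where Tek and Egfl7 were each unlisted in at least 1 library. Of 12 fibroblast markers tested, 6 fell, 0 rose and 6 were not called, and Col1a1, Col1a2 and Col3a1 made up most of the sums. Of 8 endothelial markers tested, 1 fell and 0 rose, and DESeq2 called 0 in either direction. The part of those cells was not tested.

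Among other integrin subunits 4 of 20 tested rose, 9 fell and 7 were not called (median −0.45). Over all transcripts 19.9% rose, near the share of these subunits, and 19.1% fell. The largest rises were in Itgb6 (1.46), an epithelial subunit, which had 136 and 96 footprints (KO) against 32 and 61 (WT), and Itga11 (1.10), a collagen receptor chain; Itgb8 (0.61) and the fibronectin receptor chain Itga5 (0.48) rose too, but lost their calls with DESeq2, with library totals alone, without KO replicate 2 and without WT replicate 1, where 2 subunits stayed higher. The largest falls were in Itga8 (−1.76), the partner of beta-1 that binds nephronectin, and Itga1 (−1.54), a collagen receptor chain. Itgb1, the partner of Itga3, had 430 CPM in KO and 491 in WT and was not called (−0.19, adjusted p = 0.217). Of the leukocyte subunits, Itgae (−0.78), Itgal (−0.82), Itgb2 (−0.54) and Itgb7 (−0.85) fell, while Itgam (−0.23, adjusted p = 0.163) and Itgax (−0.05, adjusted p = 0.851) were not called. Of 8 macrophage and Langerhans cell markers tested 5 fell and 0 rose (3 and 0 with DESeq2). Of all 10953 transcripts DESeq2 called 1177 lower and 1492 higher. Of 5 T cell markers tested 2 fell, Cd3e (−2.57) and Cd3g (−2.48), and 0 rose. The part of leukocytes was not tested.

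Tetraspanins, the family of Cd151, fell in 6 of 18 tested members and rose in 0 (median −0.30), against 19.1% and 19.9% of all transcripts. At an unadjusted p under 0.05 the number that rose was also 0 with edgeR. DESeq2 called 0 higher and 3 lower, and of all 10953 transcripts it called 1492 higher and 1177 lower. Fewer tetraspanins were also lower without KO replicate 2, without WT replicate 1 and without WT replicate 2, where fewer of all transcripts were lower too. Cd82 fell by 1.84 on the log2 scale, with 330 and 310 footprints in KO and 1702 and 941 in WT, Tspan8 by 1.63 and Cd9, the most covered of the list, by 0.62; Cd81, which like Cd9 associates with integrins, fell by 0.34 but lost its call with DESeq2. The fall of Cd151 (−0.45) was within that range. Among integrin adaptors and focal adhesion genes 2 of 24 rose, 12 fell and 10 were not called (median −0.41), against 19.9% higher and 19.1% lower over all transcripts. With DESeq2, 8 of the 24 were lower and 0 higher. Fewer of them were also lower in each fit without 1 library, as over all transcripts. Zyx (0.50) and Vcl (0.37) rose, though neither was called with DESeq2, with library totals alone, without WT replicate 1 or without WT replicate 2, while the adaptor Lims2 (−2.18), Tns1 (−1.50), Bcar1 (−1.0), Parvb (−0.95) and the kindlins Fermt1 (−0.61) and Fermt2 (−0.67) were lower. Parvb, with 14 and 14 footprints in KO and 39 and 23 in WT, lost its call with DESeq2 (adjusted p = 0.253), with unlisted counts at 0 (adjusted p = 0.114) and in 3 of the 4 fits without 1 library. Of 9 enzymes that process laminin chains or shed matrix and membrane proteins, the plasminogen activator Plat rose (0.47) and Mmp9 fell (−0.73). The sheddases Adam9 (0.16), Adam10 (0.33) and Adam17 (0.02) and the laminin-processing protease Bmp1 (−0.35) were among the 7 not called. Plat lost its call with DESeq2 (0.48), with library totals alone (0.29), with unlisted counts at 0 (0.47), without KO replicate 1 (0.36) and without WT replicate 2 (0.37). Mmp9 lost its call with unlisted counts at 0 (−0.72), without KO replicate 2 (−0.43) and without WT replicate 1 (−0.60).

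**Figure D4:**
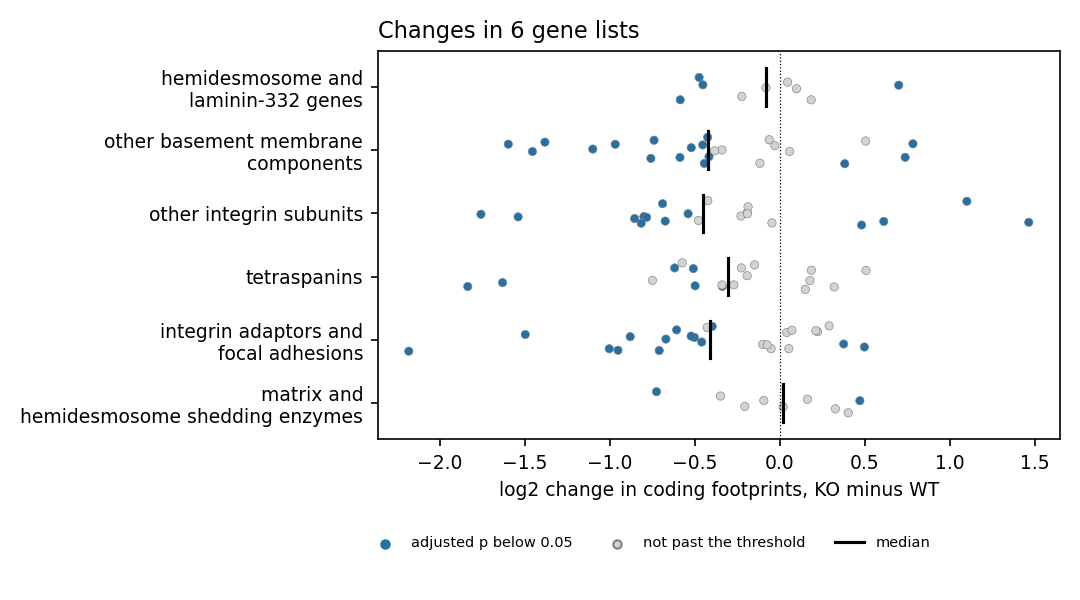
Log2 change in coding footprints (horizontal axis, KO minus WT) of each tested gene in 6 lists, spread vertically for legibility; blue points passed an adjusted p of 0.05 and black bars are list medians. The 9 hemidesmosome and laminin-332 genes have a median of −0.08, and the medians of the next 4 lists lie from −0.45 to −0.30.

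Scaled to library totals alone, 1501 transcripts were higher and 3023 lower, against 2184 and 2093 with TMM, and the median of all transcripts moved by −0.18. With that scaling 14 other integrin subunits, 15 other basement membrane genes and 10 tetraspanins were lower, and 2, 2 and 0 higher. The list medians moved by about the shift of all transcripts, which took that of the enzyme list from 0.02 to −0.16.

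The 5′ leaders of these genes held a larger part of their footprints in KO. Over 10690 transcripts, the 5′ UTR took 1.38% and 1.61% of footprints in KO and 1.04% and 0.957% in WT. Of the 9 genes, 7 had at least 20 5′ UTR footprints over the 4 libraries. In all 7 both KO libraries were above both WT libraries, as they were in 55.8% of the 2574 transcripts with that many. Col17a1 had 71 and 91 in KO and 83 and 82 in WT, or 1.78% and 2.44% of its footprints against 1.30% and 1.48%; the leader counts of KO and WT overlapped while the coding counts did not. Itga3 had 28 and 31 in KO and 22 and 8 in WT (4.98% and 5.43% against 3.33% and 1.61%). Cd151 had 28 and 15 in KO and 24 and 19 in WT, and its second KO library (3.42%) was barely above its second WT library (3.38%). The other 4 had 1 to 13 footprints in a library, too few for firm shares, and Dst had none in a leader of 41 nt. Lama3 had no 5′ UTR annotated in the table.

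**Figure D5:**
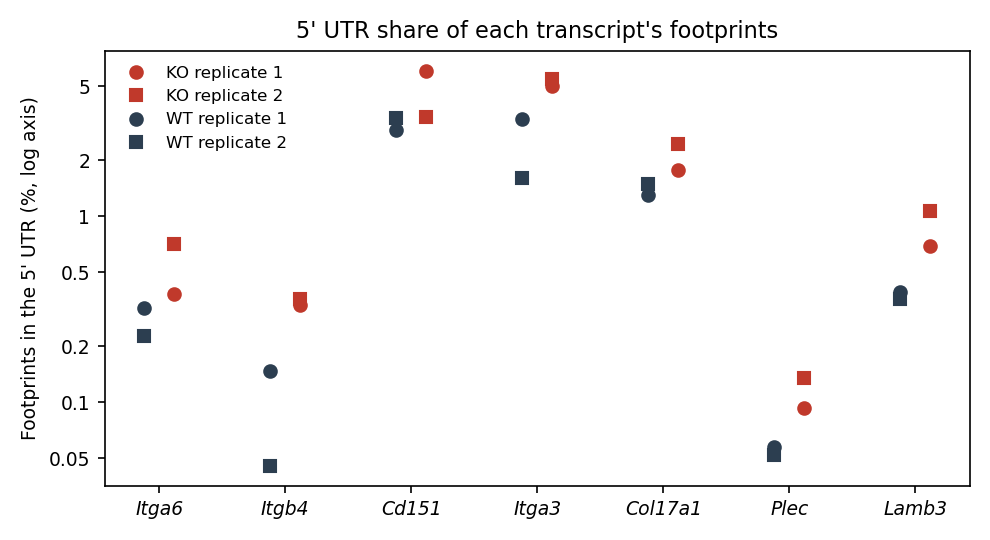
Share of each transcript's footprints that lay in its 5′ UTR, in percent on a log axis, for the 7 genes with at least 20 such footprints in all, by library. KO libraries (red) lie above WT libraries (dark blue) for all 7, by the smallest margin in Cd151.

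The 3′ UTR held almost no footprints of these genes. Every gene had 0 to 8 in a library, with the highest number in Dst (0 and 1 in KO, 8 and 5 in WT). Lamb3 had 0 and 0 in KO and 3 and 2 in WT, and Col17a1 had 2 and 2 in KO and 6 and 1 in WT. Such low counts were not tested. Over the 10690 transcripts the 3′ UTR took 0.522% and 0.587% of footprints in KO and 0.656% and 0.630% in WT, lower in both KO libraries.

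By the root-mean-square distance of centred log2 CPM over the 4 libraries, the genes nearest to the mean profile of Itga6 and Itgb4 were C1qa, Necap2, Srsf5, Lama5 and Ptpn3, at 0.0130 to 0.0149. Over 4 libraries such nearness is common: 544 of 5925 genes lay within 0.1. The 2 averaged profiles also differed. Centred log2 CPM was 0.03 for Itga6 and 0.19 for Itgb4 in KO replicate 1, and 0.12 and −0.045 in WT replicate 2. Nearness to their mean is thus not likeness to either subunit.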

How the data were processed

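Ribosome profiling of primary mouse epidermis was analysed in 2 KO and 2 WT libraries, grouped by the genotype in their titles; RNA-seq was not analysed here. The deposited table gives raw footprint counts for the whole transcript, 5′ UTR, coding region and 3′ UTR, on mm9 annotations, and region lengths in nt, per the deposited read-me. CASAVA 1.8, TopHat2 2.0.10 and Bowtie2 2.2.6 are named, without roles, in the submitters' processing notes; how reads shared between transcripts were handled is not stated there. The tables described as 28 to 34 nt and as 20 to 22 nt footprints are byte-identical, so the footprint length is unknown. A count is listed only above 0.01 coding footprints per nt, as found from the values.

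Counts of the 11019 transcripts listed in all 4 libraries were filtered (at least 10 in at least 2 libraries), leaving 10953, and tested with edgeR 4.0.16 in R 4.3.3 (TMM, quasi-likelihood test, Benjamini-Hochberg over all, threshold 0.05). SE is the absolute log2 change over the square root of F. Alternatives were DESeq2 1.42.0, library totals, no filter, unlisted counts at 0, a replicate block, whole-transcript counts and leaving out each library. On counts drawn for this comparison with 200 of 10933 genes changed, the test called 16.7% of those changed by log2 0.5, 73.1% by 1 and all by 2. Of its calls there, 6.72% fell on unchanged genes. In the data 39.0% of transcripts were called, far more than were changed in the drawn counts. The adjusted threshold was thus less strict in the data, and these shares need not hold there. The members and lists were chosen with earlier results of these data known, and some genes were taken out of the lists afterwards and are not reported here. The text names the 9 genes, Pelo, Krt5, Krt14, up to 4 called genes of each non-marker list with the largest change, and other list members chosen after their values were seen. Promoter sequences are from RefSeq (GRCm38.p6), matched by symbol.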

Additional observations from a re-analysis of the deposited data

How the results depend on the processing

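Dst, Lama3, Itga6, Itgb4 and Lamb3 kept their direction under all 10 alternatives, as did Col17a1 and Cd151. The number of the 9 genes called higher was 1 throughout; the number called lower was 2 with DESeq2, 4 with library totals (Lamb3 added) and 1 to 3 with 1 library left out. Over all transcripts DESeq2 called 1177 lower, against 2093. The log2 change of Plec turned to −0.13 with library totals and to −0.092 without WT replicate 1; it ran from −0.092 to 0.18 over the fits that left out 1 library. That of Itga3 turned to −0.077 with library totals. All 6 ratios kept their sign, also with whole-transcript counts. Replicate numbers are shared by the genotypes, but the deviations of same-numbered libraries correlated at −0.0042 over genes. No shared deviation over genes was thus seen, but this cannot tell whether the libraries were paired, which is not stated. With a replicate block, 2212 transcripts were higher and 2125 lower, with 1 and 3 of the 9 genes. Counts of 408 or more per library make sampling a minor limit for coding changes, while 2 libraries per genotype limit the tests. The changes of Col17a1 and Cd151 were under log2 0.5, and each lost its call under some alternatives. How often the test finds changes of that size in these data was not measured.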
